A study of Mus musculus with 12 samples.

Results

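The genes described here encode proteins that neutrophils store in their granules. They are Mpo, Elane, Prtn3 and Ctsg of the primary granules, and Ltf, Ngp, Camp, Lcn2, Mmp8 and Mmp9 of the secondary and tertiary granules. Chromatin accessibility at these 10 genes was read from 56 of 75281 consensus ATAC-seq peaks, of which 13 belong to primary and 43 to secondary or tertiary granule genes. A peak was taken as a member if its centre lay inside 1 of the genes or within 10 kb of its ends, and it went to the nearest member gene. The genes were picked by name with earlier results of these data known, and the peaks of each by position alone.

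The libraries came from NZO/HILtJ mice, the New Zealand Obese strain, which is inbred and known for obesity and type 2 diabetes. There were 4 groups of 3 libraries each: females aged 3 months, males aged 3 months, females aged 18 months and males aged 18 months. Neither a treatment nor an engineered allele is named for any group, and the tissue given for each is bone marrow. ATAC-seq marks open chromatin with a transposase, and the reads over a peak are its accessibility. The same labels carry a staining and sorting protocol for CD3e+ CD8+ T cells split into naive and memory cells, which goes against unsorted marrow. Of 10 T cell markers, Cd8a, Cd8b1 and Bcl11b had no consensus peak within 10 kb, while 7 had one (Cd3e, Cd3d, Cd3g, Cd4, Lck, Cd247 and Tcf7). The most abundant of these, within 10 kb of Cd3g, held 63.4 ± 5.10 CPM (SD, n = 6) at 18 months and 62.0 ± 4.31 CPM (SD, n = 6) at 3 months, where CPM is a count divided by its library's total after scaling by TMM factors. Whether this or any other marker peak lies nearer to another gene was not checked, so its level may not be that of the marker. Peaks were present at all 10 erythroid, all 10 neutrophil and all 8 B cell markers looked at. The libraries are described here by their tissue label, bone marrow, which is a mixture in which fewer cells of a type and less open chromatin per cell cannot be told apart. Total counts in peaks ranged from 7668099 to 12756647 per library, and the member peaks held from 22 to 1082 reads per library. The 18-month females were sequenced in run 14, the 18-month males in run 15 and the 3-month libraries in 4 other runs. Of the 6 runs, 0 held both ages, so age and run cannot be told apart, nor sex and run at 18 months. The 3-month male of run 30 stood above the other young libraries at many secondary and tertiary granule peaks, and values without it are given below. It was singled out from these same values, so values without it are a description.

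Neutrophil granules are filled in sequence as the cell matures in the marrow, and each kind holds the proteins made while it forms. Promyelocytes make the primary (azurophil) granules with myeloperoxidase and the serine proteases elastase, proteinase 3 and cathepsin G. Myelocytes and later stages switch to the secondary (specific) granules with lactoferrin, lipocalin 2 and cathelicidin, and then to the tertiary (gelatinase) granules rich in matrix metalloproteinase 9. The switch from early to late granule genes goes with a change in transcription factors. MYB and PU.1 are known at early genes and C/EBP epsilon at late ones.

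The sequences just before the start sites are shown first, because the results below contrast early with late granule genes and these stretches hold different motifs in them. RefSeq promoters of GRCm38.p6 were held for 9 of the 10 members, and Mmp9 was not matched. In the 250 bases before each start site, both strands were searched for 5 motifs. The C/EBP motif was written as TTGCNNAA. For PU.1 the letters GGAAGT were used. The RUNX motif was taken as TGTGGT. MYB sites were sought as AACGG. The motif of the erythroid GATA factors was spelled AGATAA. Capitals below mark every match, and a match on the opposite strand is shown as the letters of the printed strand. The sequences read 5′ to 3′ in the direction of the gene, stop 1 base before the start site and are cut to the stretch that holds the matches. They are the reference genome's, not those of the NZO strain. The first 4 belong to primary granule genes and the last 4 to secondary granule genes.
Elane, chr10:79886212-79886311, plus strand: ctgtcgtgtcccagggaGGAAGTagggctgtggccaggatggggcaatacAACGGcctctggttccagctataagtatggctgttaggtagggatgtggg
Prtn3, chr10:79879567-79879666, plus strand: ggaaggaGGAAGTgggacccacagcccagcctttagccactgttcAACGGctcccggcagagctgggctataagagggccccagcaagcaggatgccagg
Mpo, chr11:87793534-87793783, plus strand: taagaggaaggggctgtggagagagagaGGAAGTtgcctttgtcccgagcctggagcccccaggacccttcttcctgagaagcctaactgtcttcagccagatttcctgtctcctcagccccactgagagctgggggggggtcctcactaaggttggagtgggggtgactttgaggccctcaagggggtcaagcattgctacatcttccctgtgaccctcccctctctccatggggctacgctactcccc
Ctsg, chr14:56102575-56102824, minus strand: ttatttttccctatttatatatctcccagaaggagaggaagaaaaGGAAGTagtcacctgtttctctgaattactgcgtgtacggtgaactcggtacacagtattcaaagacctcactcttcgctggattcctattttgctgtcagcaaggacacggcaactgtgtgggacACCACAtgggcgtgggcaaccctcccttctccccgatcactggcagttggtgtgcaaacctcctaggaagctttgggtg
Ltf, chr9:111019192-111019291, plus strand: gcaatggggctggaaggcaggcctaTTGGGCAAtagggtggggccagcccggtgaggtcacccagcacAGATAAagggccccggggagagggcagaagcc
Ngp, chr9:110419658-110419807, plus strand: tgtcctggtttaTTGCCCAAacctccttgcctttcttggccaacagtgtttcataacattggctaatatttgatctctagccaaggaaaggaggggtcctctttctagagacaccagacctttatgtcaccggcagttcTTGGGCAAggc
Lcn2, chr2:32387740-32387989, minus strand: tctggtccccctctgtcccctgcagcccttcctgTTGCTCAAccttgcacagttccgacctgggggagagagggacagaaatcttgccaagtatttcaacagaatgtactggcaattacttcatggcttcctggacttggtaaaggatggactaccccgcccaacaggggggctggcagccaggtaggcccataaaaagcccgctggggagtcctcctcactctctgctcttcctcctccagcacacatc
Mmp8, chr9:7558179-7558428, plus strand: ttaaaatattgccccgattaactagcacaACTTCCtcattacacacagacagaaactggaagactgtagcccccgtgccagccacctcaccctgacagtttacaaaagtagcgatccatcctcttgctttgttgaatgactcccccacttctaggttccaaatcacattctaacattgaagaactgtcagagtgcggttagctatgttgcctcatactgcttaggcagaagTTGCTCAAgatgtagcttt

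The PU.1 motif stood in all 4 primary granule promoters and, of the 5 secondary ones, in that of Mmp8. It was present in 19.7% of 32851 RefSeq promoters of the same length. Elane and Prtn3, neighbours on chromosome 10, share an arrangement in which the PU.1 motif is followed by the MYB motif. In Elane the matches began 83 and 50 bases before the start site, and in Prtn3 93 and 55 bases before it. The MYB motif was in 14.5% of all promoters and in no other member. The C/EBP motif was in 4 of the 5 secondary granule promoters (Ltf, Ngp, Lcn2 and Mmp8) and in 0 of the 4 primary ones, against 9.56% of all promoters. Ngp held it on both strands, at 138 and 11 bases before the start site, and in Mmp8 it began 19 bases before it. The RUNX motif was found in Ctsg (14.05% of all promoters) and the GATA motif in Ltf (9.99%). The promoter of Camp held none of the 5 motifs. The 14 matches did not overlap each other, and they describe letters in a window, not bound sites. Only these exact letters were sought, so a missing match does not show that a factor has no site there. The member promoters were of middling GC content, 44.8% to 60.4% against a median of 52.4%, and held 2 to 7 CpG dinucleotides against a median of 6.

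Accessibility rose with age at 24 of the 43 peaks of the secondary and tertiary granule genes and at 1 of the 13 peaks assigned to primary granule genes. A peak is said to have risen or fallen where its Benjamini-Hochberg adjusted p, over all 75164 tested peaks, was under 0.05 in edgeR's quasi-likelihood test of age with sex as a covariate. The background for these counts was 9.43% of all tested peaks higher and 11.6% lower at 18 months. The share of risen peaks was thus 55.8% in the secondary and tertiary class and 7.69% in the primary class, the latter near the background. The former was uneven by gene: 10 of 13 peaks of Ltf, 5 of 5 of Ngp, 2 of 4 of Camp, 1 of 6 of Lcn2, 3 of 5 of Mmp8 and 3 of 10 of Mmp9. Peaks of 1 gene are neighbours and are not replicates of their class. The difference between the classes was not itself tested. No member peak fell: 0 were lower in edgeR's test, 0 were lower at an unadjusted p under 0.05 and 0 were lower by DESeq2. The median log2 fold change was 0.38 over the 43 secondary and tertiary peaks, 0.21 over the 13 primary peaks and 0.02 over all tested peaks. Positive values were found at 40 of the 43 and at 11 of the 13. The count of 24 was 21 by DESeq2, 21 with offsets smoothed on peak width and 18 to 27 on leaving out 1 library. All 56 member peaks passed the filter on low counts. The plot of age differences by peak shows the contrast gene by gene.

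**Figure D1:**
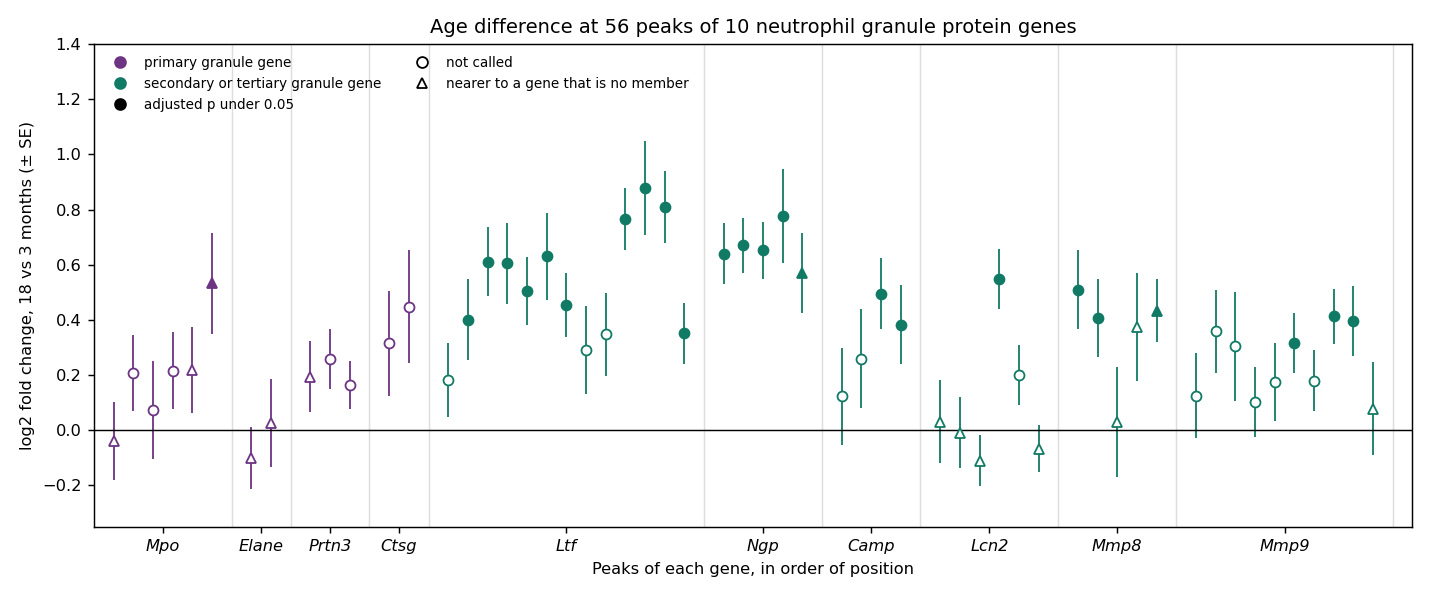
Log2 fold change of accessibility, 18 against 3 months, with its SE, at the 56 member peaks of 10 granule protein genes, ordered by position within each gene; filled symbols have an adjusted p under 0.05 and triangles mark peaks nearer to a gene that is no member. Filled symbols lie mostly in Ltf and Ngp, and the only filled primary peak, at the right end of Mpo, lies inside Lpo.

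The assignment of peaks by distance brought in peaks that lie nearer to other genes. For 41 of the 56 peaks the nearest protein-coding gene was a member. Of these, 22 of 34 secondary and tertiary peaks rose, with a median of 0.40, and 0 of 7 primary peaks rose in edgeR's test, with a median of 0.22. At an unadjusted p under 0.05, 2 of the 7 were higher (16.7% of all tested peaks), and the single primary peak that DESeq2 called, inside Lpo, was not among them. Of the 15 peaks nearer to other genes, 3 rose. This selection was added after the data had been seen, and background values are as above.

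The peaks that cover a member's start site were picked out after their values had been seen, and their counts are a description. Such a peak was present for 7 members. It rose in all 5 secondary granule genes that had one, Ltf, Ngp, Camp, Lcn2 and Mmp8, by 0.49 to 0.67 on the log2 scale. Of the 9475 tested peaks over a start site of any RefSeq gene, 3.85% rose. In Mpo and Ctsg, the 2 primary genes with one, the differences were 0.07 and 0.32 (edgeR's quasi-likelihood test, adjusted p = 0.816 and 0.250). Levels below are in CPM, and values of different peaks are not compared because their widths differ.

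**Figure D2:**
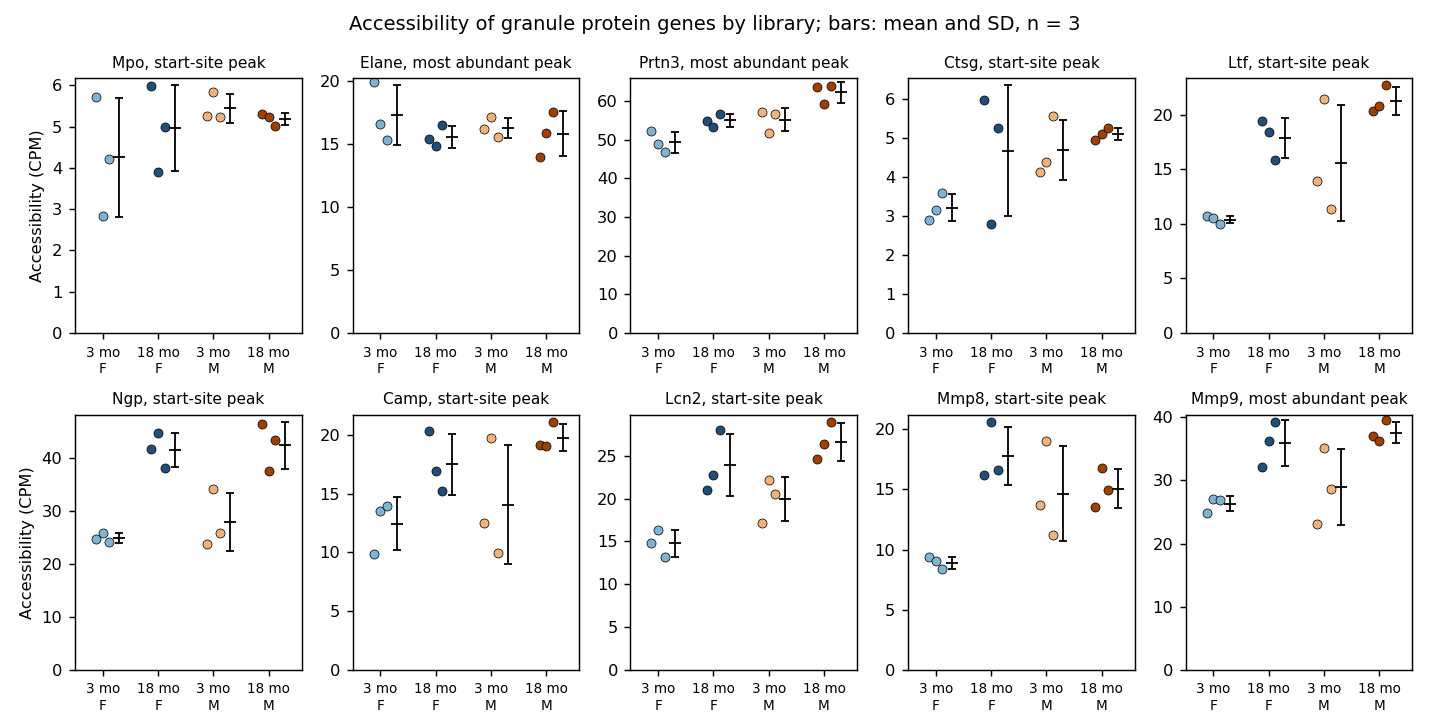
Accessibility (CPM, from 0) of 1 peak per granule protein gene in the 12 libraries by age (3 or 18 months) and sex (F, M); points are libraries, bars the mean and SD of 3. The peak is the one over the start site or, for Elane, Prtn3 and Mmp9, the most abundant one; 18-month Ngp libraries lie at 37.5 CPM or above and 3-month ones at 34.1 or below.

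Ngp, the neutrophilic granule protein, was the member in which all peaks rose: 5 of 5, by 0.57 to 0.78. Its most abundant peak (chromosome 9, 110419120 to 110420931) spans the promoter printed above. Its level in the 18-month females was 41.6, 44.6 and 38.1 CPM, and in the 18-month males 46.2, 37.5 and 43.3 CPM. In the 3-month females it was 24.7, 25.9 and 24.1 CPM, and in the 3-month males 23.7, 34.1 and 25.8 CPM. The 18-month libraries were all above the 3-month ones, and 1 young male, that of run 30, stood nearest to them. The mean was 41.9 ± 3.51 CPM (SD, n = 6) against 26.4 ± 3.90 CPM (SD, n = 6), a log2 fold change of 0.67 (SE 0.101, edgeR's quasi-likelihood test, adjusted p = 1.6e-06). The largest difference within Ngp was at a peak just past the gene's end (110423664 to 110424180). There the lowest, median and highest levels were 5.97, 10.6 and 12.4 CPM at 18 months and 4.12, 5.01 and 8.02 CPM at 3 months. The ages overlapped at that peak, and its log2 fold change was 0.78 (SE 0.170, edgeR's quasi-likelihood test, adjusted p = 0.00065). The fifth peak, 0.57 higher, lies nearer to Klhl18.

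Ltf encodes lactoferrin, the iron-binding protein of the secondary granules, and 10 of its 13 peaks rose. Its 13 log2 fold changes ran from 0.18 to 0.88, and the lowest of them was at the peak farthest before the start site. The peak over the promoter printed above (chromosome 9, 111018852 to 111019626) had 15.9, 19.9 and 22.7 CPM as lowest, median and highest level at 18 months. At 3 months these were 10.0, 11.01 and 21.5 CPM. The ages overlapped through the 21.5 CPM of the young male of run 30 alone, since the next 3-month library was at 13.95 CPM. The log2 fold change was 0.61 (SE 0.125, edgeR's quasi-likelihood test, adjusted p = 0.00028). A cluster of 3 peaks around the end of the gene had the largest differences, 0.77, 0.88 and 0.81. The middle one (111043021 to 111043567) spanned 8.43 to 17.9 CPM at 18 months, with a median of 12.99, and 4.56 to 11.7 CPM at 3 months, with a median of 6.62. The ages overlapped there, and the difference had an SE of 0.169 and an adjusted p of 0.00012 in edgeR's quasi-likelihood test. The most abundant Ltf peak, past the gene's end (111045102 to 111046658), had 21.8, 26.4 and 28.6 CPM at 18 months and 16.7, 18.9 and 29.1 CPM at 3 months. The highest of the 12 libraries was again the young male of run 30, and the log2 fold change was 0.35 (SE 0.111, edgeR's quasi-likelihood test, adjusted p = 0.018). Leaving out any 1 of the 3-month female of run 28 and the 3-month males of runs 29 and 31 ended that last call.

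**Figure D3:**
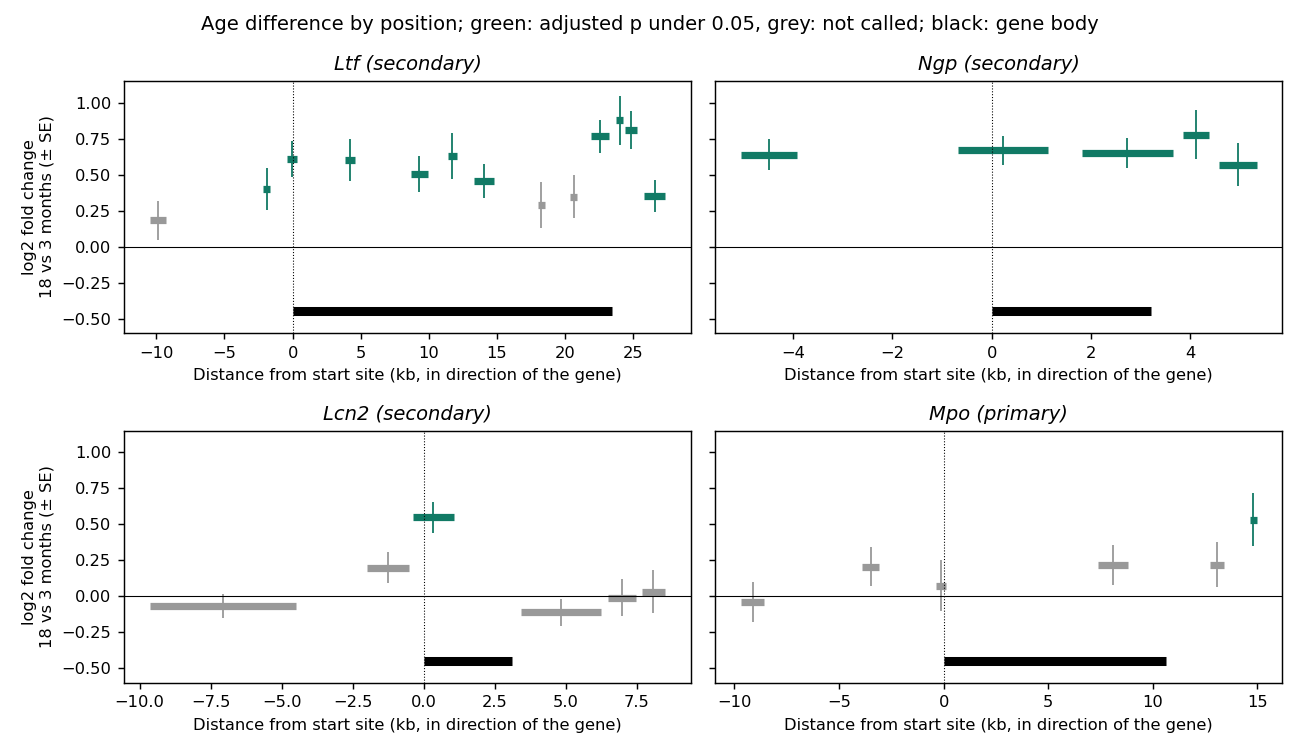
Log2 fold change of accessibility (18 against 3 months, vertical bars SE) at the peaks of Ltf, Ngp, Lcn2 and Mpo against distance from the start site in kb in the direction of the gene; thick horizontal bars give each peak's width, green has an adjusted p under 0.05 and black is the gene. In Lcn2 only the start-site peak is green, while in Ngp all 5 are.

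Camp encodes the cathelicidin precursor, an antimicrobial peptide stored in the secondary granules, and 2 of its 4 peaks rose. The peak over its start site is also its most abundant (chromosome 9, 109849090 to 109849837). Its lowest, median and highest levels were 15.2, 19.1 and 21.1 CPM at 18 months and 9.85, 13.02 and 19.7 CPM at 3 months. The highest 3-month library, the young male of run 30, lay among the 18-month libraries, and the next lay below all of them at 13.9 CPM. The log2 fold change was 0.49 (SE 0.129, edgeR's quasi-likelihood test, adjusted p = 0.0041).

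Lcn2, or lipocalin 2, withholds iron from bacteria by binding their siderophores, and 1 of its 6 peaks rose. Of the 6, 2 have Lcn2 as the nearest gene, 3 lie nearest to 1110008P14Rik and 1 to Ptges2. The peak that rose covers the start site and the promoter printed above (chromosome 2, 32386691 to 32388121). It ranged from 21.1 to 28.98 CPM at 18 months, with a median of 25.5, and from 13.2 to 22.2 CPM at 3 months, with a median of 16.8. The overlap came from the young male of run 30, at 22.2 CPM. The log2 fold change was 0.55 (SE 0.110, edgeR's quasi-likelihood test, adjusted p = 0.00022). The other peak nearest to Lcn2 (32388277 to 32389753) was 0.20 higher (SE 0.108, edgeR's quasi-likelihood test, adjusted p = 0.188), and the 3 nearest to 1110008P14Rik ran from -0.11 to 0.03. The differences between these peaks were not tested. The most abundant peak assigned to Lcn2 (32392230 to 32397388) is 5159 bp wide and lies nearest to Ptges2, a prostaglandin E synthase gene. It had 78.3, 83.1 and 87.6 CPM as lowest, median and highest level at 18 months and 81.0, 86.1 and 92.5 CPM at 3 months. The ages overlapped, and the log2 fold change was -0.07 (SE 0.0850, edgeR's quasi-likelihood test, adjusted p = 0.622). Its sign turned under scaling by total counts (0.01) and under offsets smoothed on peak abundance (0.17) or on peak width (0.17).

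Mmp8, the neutrophil collagenase, rose at 3 of its 5 peaks. The peak over its start site and the promoter printed above (chromosome 9, 7557860 to 7558859) had 16.2, 20.6 and 16.6 CPM in the 18-month females and 9.34, 9.03 and 8.34 CPM in the 3-month females. It had 13.6, 16.7 and 14.9 CPM in the 18-month males and 13.7, 19.0 and 11.2 CPM in the 3-month males. The female ages lay well apart, while the male ages overlapped throughout. With sex as a covariate the log2 fold change was 0.51 (SE 0.142, edgeR's quasi-likelihood test, adjusted p = 0.0071). It was 1.00 (SE 0.176) in females and 0.04 (SE 0.172) in males, and without the young male of run 30 it was 0.28 (SE 0.181) in males. That difference between the sexes, -0.95 (SE 0.246), did not pass edgeR's interaction test over all peaks (adjusted p = 0.213). The most abundant peak assigned to Mmp8 (7577065 to 7578860) lies inside the neighbouring metalloproteinase gene Mmp27. It had 15.6, 19.1 and 20.7 CPM as lowest, median and highest level at 18 months and 12.1, 13.7 and 15.8 CPM at 3 months. The ages overlapped by little, and the log2 fold change was 0.43 (SE 0.113, edgeR's quasi-likelihood test, adjusted p = 0.0042).

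Mmp9, the gelatinase that gives the tertiary granules their name, rose at 3 of its 10 peaks, and its 10 log2 fold changes ran from 0.08 to 0.41. Without the young male of run 30 it rose at 6 of 10, by 0.30 to 0.54, and these 6 included the 3. With all libraries the largest difference was at its most abundant peak, inside the gene (chromosome 2, 164951880 to 164954557). That peak had 32.2, 36.6 and 39.5 CPM as lowest, median and highest level at 18 months and 23.1, 26.96 and 35.2 CPM at 3 months. The ages overlapped through the young male of run 30, at 35.2 CPM, the next 3-month library being at 28.6 CPM. The log2 fold change was 0.41 (SE 0.101, edgeR's quasi-likelihood test, adjusted p = 0.0023). Without the young male of run 30 it was 0.48, and the largest difference was then 0.54 (SE 0.197, edgeR's quasi-likelihood test, adjusted p = 0.032), at a peak inside the annotated gene (164941188 to 164941516) where it is 0.30 with all libraries (adjusted p = 0.289). The other 2 peaks that rose with all libraries lie inside the gene (0.32) and just past its end (0.40).

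Among the primary granule genes, Prtn3 and Elane sit side by side on chromosome 10, with Prtn3 from 79879667 to 79883174 and Elane from 79886312 to 79888216. They encode proteinase 3 and neutrophil elastase, serine proteases that digest microbes and matrix proteins. A peak of 4749 bp (79880483 to 79885231), assigned to Prtn3, begins inside that gene and runs on towards Elane. No consensus peak covered the start site of either gene. The wide peak had 53.3, 57.9 and 64.0 CPM as lowest, median and highest level at 18 months and 46.9, 52.0 and 57.1 CPM at 3 months. The ages overlapped, and the log2 fold change was 0.16 (SE 0.0881, edgeR's quasi-likelihood test, adjusted p = 0.185). It passed the threshold under other scalings: 0.24 with total counts (adjusted p = 0.019), 0.36 with offsets smoothed on abundance (0.00034) and 0.40 with offsets smoothed on width (0.00019). The other 2 Prtn3 peaks were 0.19 and 0.26 higher, and neither passed. Both peaks assigned to Elane lie nearer to other genes, Cfd and Med16. The more abundant of them (79892532 to 79893699) had 14.01, 15.6 and 17.6 CPM at 18 months and 15.3, 16.4 and 19.9 CPM at 3 months. The ages overlapped, with a log2 fold change of -0.10 (SE 0.112, edgeR's quasi-likelihood test, adjusted p = 0.571). It was -0.045 without the 3-month female of run 28 and -0.023 with total counts.

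Mpo encodes myeloperoxidase, which makes hypochlorous acid in the phagosome, and it had 1 risen peak of 6. Its most abundant peak lies inside the gene (chromosome 11, 87801188 to 87802580). It had 9.23, 11.5 and 17.2 CPM as lowest, median and highest level at 18 months and 7.99, 9.43 and 14.96 CPM at 3 months. The ages overlapped widely, and the log2 fold change was 0.22 (SE 0.141, edgeR's quasi-likelihood test, adjusted p = 0.287). That value was 0.13 without 18-month male 40, 0.14 without the 3-month male of run 29, 0.13 without that of run 30 and 0.33 without that of run 31, and it passed in none of these fits. The peak over the start site (87793418 to 87793904) was at 5.07 ± 0.678 CPM (SD, n = 6) in old and 4.84 ± 1.14 CPM (SD, n = 6) in young libraries, which do not differ beyond their spread. Its log2 fold change, 0.07, turned to -0.02 under offsets smoothed on width, to -0.01 without 18-month female 35 and to -0.04 without the 3-month female of run 29. The risen peak (87808409 to 87808748) lies inside Lpo, the lactoperoxidase gene next to Mpo. It had 5.83, 5.18 and 3.72 CPM in the 18-month females and 4.85, 6.61 and 6.77 CPM in the 18-month males. It had 2.90, 3.27 and 4.01 CPM in the 3-month females and 5.13, 3.65 and 3.81 CPM in the 3-month males. The ages overlapped, and the log2 fold change was 0.53 (SE 0.182, edgeR's quasi-likelihood test, adjusted p = 0.030). The call ended under offsets smoothed on abundance or width and on leaving out any 1 of 7 libraries (18-month females 35 and 36, 18-month males 39 and 40, the 3-month females of runs 28 and 29 and the 3-month male of run 31), with adjusted p up to 0.115 over all these settings.

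Ctsg encodes cathepsin G, a further serine protease of the primary granules, and neither of its 2 peaks passed. The one over its start site, which overlaps the promoter printed above (chromosome 14, 56102298 to 56102752), was also among the least abundant member peaks, with 28 to 74 reads per library. It had 2.79, 5.19 and 5.99 CPM as lowest, median and highest level at 18 months and 2.90, 3.86 and 5.58 CPM at 3 months. The ages overlapped, and the log2 fold change was 0.32 (SE 0.191, edgeR's quasi-likelihood test, adjusted p = 0.250). It was 0.20 without 18-month female 35. The other peak was 0.45 higher (SE 0.205, edgeR's quasi-likelihood test, adjusted p = 0.113). This second peak held 22 to 59 reads per library.

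Strict separation of the ages was found in Ltf and Ngp alone. The CPM ranges of the ages did not overlap, with 18 months higher, at 6 of the 43 secondary and tertiary peaks (3 of Ltf and 3 of Ngp) and at 0 of the 13 primary peaks, against 2.2% of all tested peaks. A single library bore on these counts. The young male of run 30 was the highest of the 6 young libraries at 27 of the 43 secondary and tertiary peaks and at 2 of the 13 primary peaks. Without it, the ranges did not overlap at 14 secondary and tertiary peaks (7 of Ltf, 4 of Ngp and 1 each of Camp, Lcn2 and Mmp9) and at 0 primary peaks, against 4.73% of all tested peaks. Leaving out a young library can only keep or raise such a count, and this one was picked because it was high at these peaks. Peaks that rose without it numbered 27 secondary or tertiary and 1 primary, against 12% of all tested peaks. The 3 more secondary or tertiary calls were all at Mmp9. The log2 fold changes of the start-site peaks were then 0.75 in Ngp, 0.77 in Ltf, 0.63 in Camp, 0.59 in Lcn2, 0.67 in Mmp8, 0.31 in Ctsg and 0.11 in Mpo. Among the other peaks described above it was then 0.46 at the most abundant Ltf peak, 1.10 at the end of Ltf, 0.90 past the end of Ngp, 0.44 at the Mmp8 peak inside Mmp27 and 0.49 at the Mpo peak inside Lpo. The summed CPM at 10 neutrophil markers (Mmp9 and 9 genes that are no members) was 362 in this library and 207 to 246 in the other 5 young ones. It was also above the other 5 at the further primary granule genes described below (535 against 400 to 439 CPM), the further secondary, tertiary and secretory granule genes (447 against 306 to 340), the regulators of granulocyte development (706 against 491 to 577) and the B cell markers (178 against 142 to 165). At natural killer cell markers it was below them (31.9 against 37.1 to 41.5), and at the erythroid, T cell, monocyte, stem and progenitor, and eosinophil, basophil and mast cell lists it lay within their range. The part of such markers in the result was not tested.

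The mean log2 CPM over all peaks of a class shows the classes library by library. In the old libraries the secondary and tertiary mean was 3.81 ± 0.09 (SD, n = 6), against 3.43 ± 0.17 (SD, n = 6) in the young ones. The 3-month libraries lay from 3.28 to 3.44 except the young male of run 30 at 3.75, which fell among the 18-month libraries (3.72 to 3.95). The primary mean in turn was 3.36 ± 0.14 (SD, n = 6) in old libraries and 3.17 ± 0.05 (SD, n = 6) in young ones. Of the 18-month libraries, female 36 at 3.15 and female 42 at 3.24 lay within the range of the young ones, 3.10 to 3.27. The secondary and tertiary mean exceeded the primary one by 0.45 ± 0.12 (SD, n = 6) in the old and by 0.26 ± 0.17 (SD, n = 6) in the young libraries. The ages overlapped in this difference through the young male of run 30 at 0.58, the other young libraries lying from 0.13 to 0.30 and the old ones from 0.33 to 0.63. Without it the young libraries averaged 3.37 in the secondary and tertiary class, 3.17 in the primary class and 0.20 in the difference. The size of the difference depends on the widths of the peaks, so only its change between libraries is compared here. No test was made of these means, because the genes were chosen with earlier results of these data in view. The median log2 fold change was higher for the secondary and tertiary than for the primary peaks in the main analysis and under the 19 alternatives of scaling, test, filter and left-out library. It ran from 0.34 to 0.46 for the former and from 0.16 to 0.28 for the latter.

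**Figure D4:**
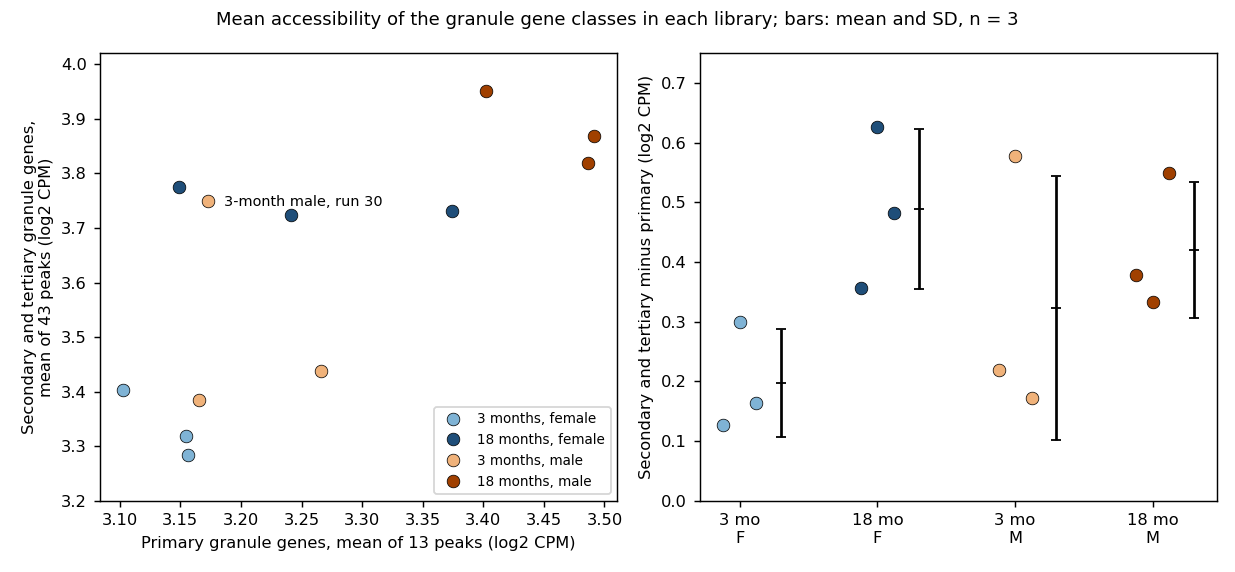
Left, mean log2 CPM of the 43 secondary and tertiary peaks against that of the 13 primary peaks in each of the 12 libraries; right, their difference by group, with the mean and SD of 3 libraries as bars. The young male of run 30 lies among the 18-month libraries on the secondary and tertiary axis (3.75) and among the 3-month ones on the primary axis (3.17).

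Within females, 15 members were higher at 18 months, all of them secondary or tertiary (6 of Ltf, 4 of Ngp, 2 of Mmp8, 2 of Mmp9 and 1 of Lcn2). The background was 5.7% higher and 6.2% lower, and 0 members were lower. Of the 13 primary peaks 0 passed in edgeR's test and 0 by DESeq2. At an unadjusted p under 0.05, 2 of them were higher and 1, assigned to Mpo, was lower, against 13.6% and 12.5% of all tested peaks. Within males, 9 members were higher (5 of Ngp, 3 of Ltf and 1 of Mmp8), against a background of 3.21% higher and 8.18% lower, and 0 members were lower. Of the primary peaks again 0 passed in edgeR's test and 0 by DESeq2, and 3 were higher at an unadjusted p under 0.05, against 10.4% of all tested peaks. The male count moved with single libraries. It was 20 without the young male of run 30 (18 secondary or tertiary and 2 primary, background 3.25%), 5 without 18-month male 40 (background 1.83%) and 4 without the 3-month male of run 29 (background 1.48%).

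No member passed the test of a difference in age effect between the sexes: 0 passed in edgeR's interaction test, 6 had an unadjusted p under 0.05 and 0 passed by DESeq2. The background was 0.00532% of all tested peaks at the adjusted and 10% at the unadjusted threshold, so the members' 6 of 56 (10.7%) lay near it. By class these were 3 of the 13 primary peaks (23.1%), with a log2 fold change below 0 in females and above 0 in males at each, all nearer to a gene that is no member, and 3 of the 43 secondary and tertiary peaks (6.98%). The smallest adjusted p, 0.213 in edgeR's quasi-likelihood test, was that of the Mmp8 start-site peak. It fell to 0.0083 without the 3-month male of run 31, where the interaction was -1.12 (SE 0.244) and 2.16% of all peaks passed, and rose to 0.503 without that of run 30, where the interaction was -0.71. Sex itself, with age as a covariate, gave 0 member peaks in edgeR's test, 13 at an unadjusted p under 0.05 and 0 by DESeq2, with 0.162% of all tested peaks called at the adjusted and 7.57% at the unadjusted threshold. The 13 were all secondary or tertiary peaks and all higher in males, as were 37 of the 43 by sign. Among them the start-site peak of Ltf was 0.40 higher in males (SE 0.125, edgeR's quasi-likelihood test, adjusted p = 0.342). Without the young male of run 30 that value was 0.26, 7 of the 43 had an unadjusted p under 0.05 (12.8% of all tested peaks) and 32 were higher in males. Runs 29 and 31 each held 1 library of each sex at 3 months. With run as a block, which compares the sexes within those 2 runs, 0 members passed in edgeR's test, 5 had an unadjusted p under 0.05 (5.28% of all tested peaks), 24 of the 43 were higher in males and the Ltf start-site peak stood at 0.29 (SE 0.199).

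Other granule genes were read at the most abundant peak within 10 kb of each, and the counts for these and the following lists stand beside the 9.43% of all tested peaks that rose and the 11.6% that fell. Whether such a peak lies nearer to another gene was not checked for these lists, so a peak read for a gene may belong to a neighbour. Of 10 further genes for primary granule proteins or their processing, 1 rose and 1 fell, which is near that background, with a median log2 fold change of 0.14. The gene that rose was Ctsc, encoding cathepsin C, which activates the serine proteases of the primary granules. Its level of 36.9 ± 7.74 CPM (SD, n = 6) in old libraries stood against 24.0 ± 3.01 CPM (SD, n = 6) in young ones, with no overlap, a log2 fold change of 0.61 (SE 0.110, edgeR's quasi-likelihood test, adjusted p = 4.5e-05). The peak that fell, by 0.24, was the one read for Galns, a lysosomal sulfatase gene. Of 15 further genes of secondary, tertiary or secretory granules, 14 had a peak, 5 rose and 0 fell, with a median of 0.31. Those that rose were Cd177 (0.52), Itgam (0.30), Adam8 (0.32) and the formyl peptide receptor genes Fpr1 (0.49) and Fpr2 (0.55). The 9 that did not pass were Cybb (0.41), Olfm4 (0.40), Mmp25 (0.32), Chil3 (0.22), Pglyrp1 (0.14), Chil1 (0.09), Cyba (0.06), Hp (-0.08) and Slc11a1 (-0.19).

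Of 12 regulators of granulocyte development, 1 rose and 1 fell, shares near that background, with a median of -0.03. Cebpa, needed for entry into the granulocyte lineage, was 0.27 higher (SE 0.0992, edgeR's quasi-likelihood test, adjusted p = 0.044). Myb, a factor of progenitors and promyelocytes, was 0.29 lower on the log2 scale, at 28.7 ± 2.46 CPM (SD, n = 6) against 35.2 ± 3.41 CPM (SD, n = 6), with no overlap (edgeR's quasi-likelihood test, adjusted p = 0.027). Cebpe, whose protein drives secondary granule genes, stood at -0.23 (adjusted p = 0.073 in the same edgeR test) and Spi1, encoding PU.1, at 0.25 (adjusted p = 0.076).

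Markers of cell types moved with age beside these results. Of the 10 neutrophil markers 6 rose and 0 fell, with a median of 0.32. The 6 include the most abundant Mmp9 peak, itself a member, and Itgam, which is also among the further granule genes above. Their summed level was 302 to 351 CPM at 18 months and 207 to 362 CPM at 3 months. Of the 10 erythroid markers 9 fell, with a median of -0.96 and a summed level of 393 to 444 CPM at 18 months against 624 to 792 CPM at 3 months. Among monocyte markers 1 of 7 rose, and among B cell markers 1 of 8 fell. T cell markers had a peak for 7 of 10 genes, of which 1 rose and 2 fell, with a summed level of 200 to 228 CPM at 18 months and 206 to 245.4 CPM at 3 months. Of the 7 stem and progenitor markers with a peak 1 fell, of 5 natural killer cell markers 1 rose, and of 6 eosinophil, basophil and mast cell markers 1 rose. The part of a shift between cell types in the difference at the granule genes was not tested.

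The genes most like the members were sought over the 12 libraries after subtracting each group's mean, by Pearson correlation of log2 CPM with the mean of the most abundant peaks of each class. These peaks include those assigned to Elane, Lcn2 and Mmp8 that lie nearer to Cfd, Ptges2 and Mmp27. Among 31573 peaks in or near other genes, those closest to the primary class lay at Spin2f (0.96), Hap1 (0.95), Usp20 (0.94), Git1 (0.94) and Trappc10 (0.93). Those closest to the secondary and tertiary class lay at Cmip (0.97), Wipf1 (0.96), Iffo2 (0.96), Pxk (0.96) and Mgat4e (0.96). The lists share no gene. Without the young male of run 30 the correlations of these genes were 0.93 to 0.96 with the primary class and 0.72 to 0.87 with the secondary and tertiary class. On levels from which no group mean was subtracted they ran from 0.25 (Spin2f) to 0.73 (Hap1) for the primary class and from -0.17 (Pxk) to 0.85 (Wipf1) for the other. These values come from a search among many candidates over 12 libraries that share depth and scaling, and they are a description.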

How the data were processed

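ATAC-seq libraries of bone marrow from 12 mice were grouped by the ages and sexes in the labels. The authors deposited 1 table of read counts for 75281 consensus peaks, with coordinates printed as deposited and a smallest value of 1. Per the submitters' processing notes, Trimmomatic, BWA, MACS2, DiffBind and edgeR were used with the mm10 build; their roles, versions, treatment of duplicates and shift of read ends are not given in the sources used here. The notes' mm10 is the UCSC name for GRCm38, so peaks were placed on RefSeq genes of GRCm38.p6, and promoters came from the matching RefSeq table, from which start sites and strands were taken.

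Peaks above 1 CPM in 2 or more libraries (75164) entered edgeR 4.0.16 in R 4.3.3, with TMM factors, a quasi-likelihood F test, an additive age and sex model, group means for effects within a sex and for the interaction, and Benjamini-Hochberg adjustment at 0.05. SE were derived from the F statistic. Log2 CPM used a prior count of 2. A run of the same code on simulated counts was checked. Depth limits the lowest peaks: 3 counts are 0.235 to 0.391 CPM. No molecular identifiers are named, and nothing beyond mouse numbers says how separate the samples were, so p-values measure the spread between these samples, which may be partly technical.

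Each gene's most abundant peak was named, plus its most changed peak where that one passed; start-site peaks were added later. Alternatives were total counts, DESeq2 size factors, offsets smoothed on abundance or width, DESeq2 1.42.0, other filters (none, or CPM above 3 in 6 libraries), windows of 3 and 50 kb, fits within 1 sex or age, sequencing run as a block for sex (added after the data had been seen) and leaving out each library. The members and lists were chosen with earlier results of these data known.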

Additional observations from a re-analysis of the deposited data

Results flagged for a closer look

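At the 17 peaks described singly, the 6 values of each age were checked for a value far from the rest, which made 34 groups, and 4 groups held one. Chance alone flags about 1 group in 20. In 3 of them the value belonged to the 3-month male of run 30, which was high: 34.1 CPM at the Ngp start-site peak, where the next library was at 25.9 CPM, 21.5 CPM at the Ltf start-site peak (next 13.95 CPM) and 29.1 CPM at the most abundant Ltf peak (next 20.4 CPM). These peaks share a library, and those of Ltf share a gene, so the 3 are not independent. The other was low: 2.79 CPM at the Ctsg start-site peak in the 18-month female 36, with the next library at 4.94 CPM.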

How the results depend on the processing

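The 24 secondary and tertiary and the 25 total calls for age stayed within 1.5 times under all 23 alternatives (18 to 31 and 18 to 36), and so did the 15 calls in females over 20 alternatives (10 to 20). These are counts and not shares. The windows change the set, with 38 member peaks within 3 kb and 142 within 50 kb against 56 within 10 kb, so their counts do not show that the share was stable. Primary calls for age, 1 in the main analysis, numbered 3 with total counts, where 14.9% of all tested peaks were higher. They numbered 2 with offsets smoothed on abundance (9.59% of all tested peaks), 2 with offsets smoothed on width (8.44%) and 2 within 50 kb. The call of the main analysis, inside Lpo, ended under both offsets, so the calls there were of other peaks. Primary calls numbered 0 within 3 kb, 0 without peaks inside another gene, 0 with peaks nearest to a member and 0 to 1 on leaving out 1 library. Members lower at 18 months numbered 3 of the 142 peaks within 50 kb, beside 11.6% of all tested peaks. Primary calls in females, 0 in the main analysis, were 1 with total counts, 1 with abundance offsets, 2 with width offsets, 1 with CPM above 3 in 6 libraries, 1 with females alone and 0 to 1 with 1 library left out. The 9 calls in males became 19 with total counts (2 primary and 17 secondary or tertiary), 15 with abundance offsets (1 and 14) and 14 with width offsets (2 primary). With CPM above 3 they included 1 primary peak. The shares of all tested peaks called within a sex under these scalings and filters are not given here, so these counts cannot be read as results about the members. Leaving out 1 library gave 4 to 20 in males (0 to 2 primary, 4 to 18 secondary or tertiary), 0 to 1 for the interaction and 14 peaks without overlap of the ages (without the 3-month male of run 30). Of 323 refits of the 17 named peaks, 302 kept direction and side of the threshold, 12 lost the call (Mpo inside Lpo and the most abundant Ltf peak), 3 gained it (Prtn3) and 6 changed sign. The latter were the Mpo start-site peak (-0.020 with width offsets, -0.014 without 18-month female 35 and -0.042 to 0.16 over all left-out libraries) and the most abundant Lcn2 peak (0.0097 with total counts, 0.17 with abundance and 0.17 with width offsets). The cause was not tested. No paired analysis was possible because the groups share no replicate number and no run holds both ages. For sex, run as a block, added after the data had been seen, left 0 calls. Peaks inside Mmp27 and Lpo or nearest to Cfd, Med16 and Ptges2 may belong to those genes.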
